A study of Mus musculus with 6 samples.

Results

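The genes described here are those of hemoglobin, of its heme and of calprotectin, read as a measure of blood left in dissected substantia nigra (SN), in MitoParks and in littermate controls. They were chosen by symbol: Hba-a1 and Hba-a2 for alpha globin, Hbb-bs and Hbb-bt for beta globin, Alas2, S100a8 and S100a9. Beta globin also has separate entries named Hbb-b1 and Hbb-b2, so that the 7 symbols gave 9 of the 24054 genes in the table. Whether these entries are genes apart from Hbb-bs and Hbb-bt in these mice was not tested. Polyadenylated RNA from the SN of 3 MitoParks and 3 littermate controls aged 16 to 17 weeks was sequenced. MitoParks (Dat +/Cre: TFAM LoxP/LoxP) lack Tfam, which encodes mitochondrial transcription factor A, wherever the dopamine transporter is expressed, since Cre is carried at that locus. The littermate controls (TFAM +/LoxP: Dat +/+) carry no Cre, and all mice are of C57BL/6 background with at least 1 loxP-flanked Tfam allele. No mouse received a treatment. The tissue is the SN by the study's methods and brain tissue by the labels, and whether the animals were perfused before the SN was frozen is not given in the sources used here.

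Adult hemoglobin is built from a pair of alpha and a pair of beta chains, each holding 1 heme. Alas2 encodes the red cell form of the first enzyme of heme synthesis, and its mRNA, like those of the globins, is still present in reticulocytes, the youngest red cells of the circulation. S100a8 and S100a9 encode the subunits of calprotectin, a calcium-binding protein of neutrophils. Hemoglobin transcripts are also known from dopamine neurons of the SN, so that globin RNA in this tissue need not come from blood alone. In bulk tissue, fewer cells of a type and less RNA per cell cannot be told apart.

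The globin genes are shown first by sequence, because their likeness bears on every count given for them. The coding sequences of Hba-a1 and Hba-a2 are each 429 bases long and differ at 1 base, C381T from Hba-a1 to Hba-a2, counted from 1 at the start codon (GENCODE M21). Those of Hbb-bs and Hbb-bt are each 444 bases long and also differ at 1 base, C417T from Hbb-bs to Hbb-bt. The last 100 coding bases of the 4 genes follow, with the differing base in capitals:
Hba-a1: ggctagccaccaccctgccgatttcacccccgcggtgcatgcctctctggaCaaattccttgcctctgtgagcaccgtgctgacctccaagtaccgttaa
Hba-a2: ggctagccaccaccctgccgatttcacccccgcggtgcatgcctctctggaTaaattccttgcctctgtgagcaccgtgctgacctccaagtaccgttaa
Hbb-bs: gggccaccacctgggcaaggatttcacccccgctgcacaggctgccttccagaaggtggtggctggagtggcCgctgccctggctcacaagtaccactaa
Hbb-bt: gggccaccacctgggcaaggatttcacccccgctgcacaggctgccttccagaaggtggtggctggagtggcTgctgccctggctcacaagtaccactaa
Of the 455 windows of 100 bases in the Hba-a2 transcript, 339, or 74.5%, occur unchanged in Hba-a1. For Hbb-bt it was 331 of 604 windows, or 54.8%, that occur in Hbb-bs. No window of the Hbb-bs transcript occurs in Hba-a1, so stretches of this length tell alpha from beta, while copies of 1 chain often share them. By the study's methods the reads were longer than these windows, and shares at the read length were not computed. Hbb-b1 and Hbb-b2 were not in this comparison.

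The start regions of globin genes and Alas2 are shown next as sequence, and a link between them and the levels was not tested. RefSeq sequences of build GRCm38.p6 were at hand for the 7 symbols chosen, and Hbb-b1 and Hbb-b2 are named only. The 150 bases before the start are printed on the gene's strand for Hba-a1 (chr11:32283522-32283671, plus strand), Hbb-bs (chr7:103827929-103828078, minus strand), Hbb-bt (chr7:103813924-103814073, minus strand) and Alas2 (chrX:150547267-150547416, plus strand), with every match in capitals:
Hba-a1: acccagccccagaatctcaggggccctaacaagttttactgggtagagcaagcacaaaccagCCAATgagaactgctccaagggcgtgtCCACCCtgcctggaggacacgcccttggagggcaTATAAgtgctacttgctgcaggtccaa
Hbb-bs: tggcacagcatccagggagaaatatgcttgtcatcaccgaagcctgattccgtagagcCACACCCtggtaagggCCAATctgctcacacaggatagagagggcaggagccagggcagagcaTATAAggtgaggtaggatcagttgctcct
Hbb-bt: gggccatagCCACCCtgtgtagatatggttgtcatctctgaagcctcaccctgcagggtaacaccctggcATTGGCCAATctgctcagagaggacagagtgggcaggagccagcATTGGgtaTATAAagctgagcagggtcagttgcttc
Alas2: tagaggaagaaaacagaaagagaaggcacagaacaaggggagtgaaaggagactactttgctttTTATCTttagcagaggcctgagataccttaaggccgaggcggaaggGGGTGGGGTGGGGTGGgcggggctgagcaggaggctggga
The letters searched on both strands were TATAA, the CCAAT box, the CACCC letters in the form CCACCC or else the form CACACCC, and the GATA letters, which are AGATAA with A or T in the first place and A or G in the last. TATAA began 27 bases before the start in Hba-a1, 29 in Hbb-bs and 28 in Hbb-bt, and 14.2% of 32851 RefSeq promoters hold it in the same 150 bases. CCAAT was matched in those 3 genes and, over all promoters, in 24.5%. The CACCC letters were matched in all 4 windows shown, against 23.2% of all promoters, and the 3 matches of Alas2 overlap each other by 1 base. Of these 4 genes only Alas2 held the GATA letters, 86 to 81 bases before its start, and 16.0% of all promoters hold them. The calprotectin genes, searched but not shown, held some of the same letters. S100a9 held the GATA letters 30 to 25 and the CACCC letters 92 to 87 bases before its start. S100a8 held TATAA 30 to 26 bases before its start. The matches were thus not particular to the red cell genes. The 250 bases before Hba-a1 and Hba-a2 share an identical run of 247 bases, whereas the longest run shared by Hbb-bs and Hbb-bt is 14 bases.

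The expected counts summed to between 8140777 and 10528602 per mouse, so that 3 counts, the level taken as the floor of detection, correspond to between 0.285 and 0.369 CPM. Levels are CPM, counts per library of 1000000 counts, scaled by the trimmed mean of M-values (TMM). Tfam, the deleted gene, was at 43.3 ± 2.70 CPM in littermate controls and at 32.9 ± 0.284 CPM in MitoParks (SD, n = 3 each), with every MitoPark below every littermate control. Of the dopamine neuron markers, Th and Slc6a3 were found in all 6 mice, whereas Pitx3 had 0 counts and Foxa2 3 counts in MitoPark 1. Littermate control 3 stood apart with the highest summed level of these markers.

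Globin RNA was found in every mouse, but its division among the listed entries was not settled by the reads. Hbb-b2 and Hbb-bt had exactly the same expected count in 6 of 6 mice, from 57.21 in littermate control 1 to 112.54 in MitoPark 3. For Hbb-bs, littermate controls 1 to 3 were listed at 0, 189.97 and 97.82 counts and MitoParks 1 to 3 at 44.94, 215.88 and 0. In the mice where Hbb-bs is listed at 0, Hbb-b1 held 670.57 and 1452.91 counts, so beta globin was present where Hbb-bs is listed at 0. Hbb-b1 took between 84.0% (Wilson 95% interval 82.0 to 85.9) and 100% of the counts of Hbb-b1 and Hbb-bs together. Hba-a2 took 17.1% of the alpha counts in littermate control 1 (14.8 to 19.8) but 5.63% in MitoPark 2 (4.63 to 6.80). Such intervals, here and below, cover counting error only, and the reads carry no molecular identifiers. For shares between entries that share reads, the intervals leave out the error of dividing those reads.

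Summed by chain, the counts became whole reads. Neither Hba-a1 nor Hba-a2 was within 0.05 of a whole number in more than 1 of 6 mice, yet their sum was so in 6 of 6. The sum of the 4 beta globin entries was likewise within 0.05 of a whole number in 6 of 6 mice. Hbb-b1 with Hbb-bs and Hbb-b2 with Hbb-bt were so in 0. The reads were thus shared within each chain and not between chains, and the sums per chain are the values to compare between mice. As bars by mouse, the copies and their sums show where mice differ in level and where they differ in the division.

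**Figure D1:**
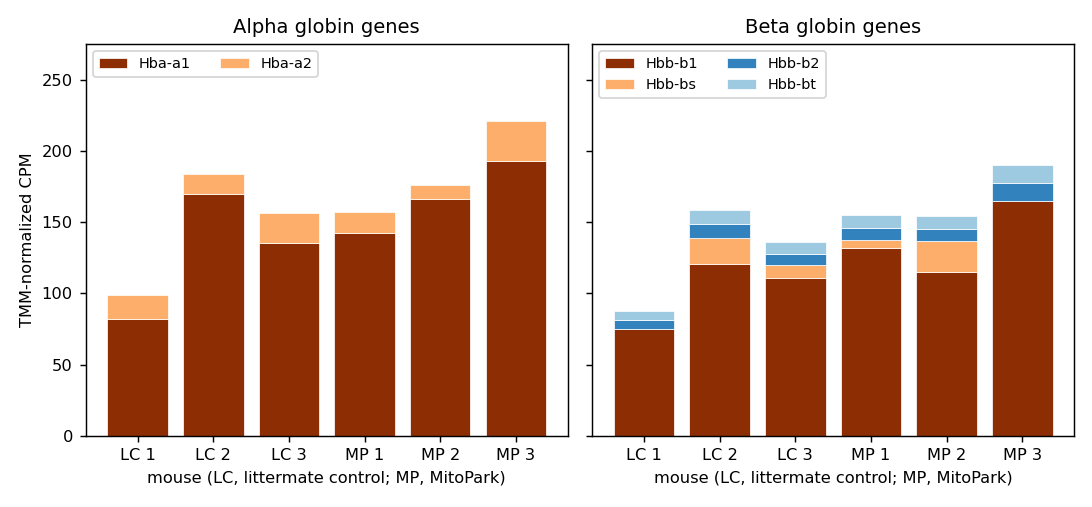
Stacked bars give the TMM-normalized CPM of each alpha globin gene (left) and each beta globin entry (right). They cover the 3 littermate controls (LC) and 3 MitoParks (MP), without error bars since each bar is 1 mouse. Littermate control 1 has the shortest bars, at 98.6 and 87.3 CPM, MitoPark 3 the tallest, at 220.6 and 190.2 CPM, and Hbb-bs is missing in these same mice.

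The alpha globins summed to 98.6, 183.5 and 156.2 CPM across littermate controls 1 to 3 and to 157.2, 176.2 and 220.6 CPM across MitoParks 1 to 3. The beta globins summed to 87.3, 158.6 and 135.7 CPM across littermate controls 1 to 3 and to 154.9, 154.2 and 190.2 CPM across MitoParks 1 to 3. Littermate control 1 was the lowest and MitoPark 3 the highest for both chains, and littermate control 2 lay above 2 of the 3 MitoParks, so the groups overlapped. All globins together were at 273.3 ± 79.7 CPM in littermate controls and at 351.1 ± 52.5 CPM in MitoParks (SD, n = 3 each), 1.28-fold higher in MitoParks. The log2 of this fold was 0.36, and it was 0.15 without littermate control 1 and 0.56 without littermate control 2. Between single mice the range was wider, with 2.21-fold more globin RNA in MitoPark 3 than in littermate control 1. On the log2 scale the spread within groups was 0.35 (pooled SD), which is larger than that of 80.8% of the 14568 genes tested, whose median was 0.19. As a share of all counts, the globins ranged from 0.0187% (Wilson 95% interval 0.0179 to 0.0197) in littermate control 1 to 0.0418% (0.0405 to 0.0432) in MitoPark 3.

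The balance of the chains varied little. Alpha globin made up 53.0%, 53.6% and 53.5% of the globin counts across littermate controls 1 to 3 and 50.4%, 53.3% and 53.7% across MitoParks 1 to 3. MitoPark 1 had the lowest share, with an interval of 48.4 to 52.3 that overlaps that of littermate control 1, 50.6 to 55.4. By group the share was 53.4 ± 0.327% and 52.5 ± 1.85% (SD, n = 3 each).

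Of the 9 genes, 7 passed the filter on low counts (a group mean above 1 CPM) and entered the comparison, and S100a8 and S100a9 did not. None of the 7 was called at p below 0.05, unadjusted, with more than 1.5-fold change, where 0.577% of all genes tested were called, 0.378% as higher and 0.199% as lower in MitoParks. In none of the 7 were the groups separate, against 4.71% of all genes tested, 2.43% with the MitoParks higher. The fold change was above 1 for 6 of the 7, as it was for 48.6% of all genes, but 6 of these 7 genes share reads and are not independent.

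Hbb-b1 had the lowest p. Its level was 74.7, 120.8 and 110.5 CPM across littermate controls 1 to 3 and 131.9, 114.6 and 164.6 CPM across MitoParks 1 to 3. MitoPark 2 lay below littermate control 2, so the groups overlapped (two-sided exact permutation test, p = 0.2, where 3 mice against 3 cannot give less than 0.1). The log2 fold change was 0.42 (95% interval -0.0047 to 0.85), with an unadjusted p of 0.0521 in the edgeR quasi-likelihood test and, by Benjamini-Hochberg over every gene tested, an adjusted p = 0.999. Since the beta globin entries share reads, the sum of all 4 is the value to compare. That sum was at 127.2 ± 36.4 CPM in littermate controls and 166.4 ± 20.6 CPM in MitoParks (SD, n = 3 each), with overlapping groups.

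Hba-a1 was at 81.7, 169.7 and 135.0 CPM across littermate controls 1 to 3 and at 142.4, 166.3 and 192.7 CPM across MitoParks 1 to 3. Littermate control 2 was above MitoParks 1 and 2. The log2 fold change of Hba-a1 was 0.37 (95% interval -0.15 to 0.90), with an unadjusted p of 0.139 (edgeR quasi-likelihood test). It rested on the mice chosen, since Hba-a1 was called without littermate control 2 (log2 fold change 0.62, unadjusted p = 0.024 and adjusted p above 0.999 from the same test) and was at 0.14 without littermate control 1.

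Hba-a2 was at 16.9, 13.9 and 21.2 CPM across littermate controls 1 to 3 and at 14.9, 9.90 and 28.0 CPM across MitoParks 1 to 3. Both the lowest and the highest value were those of MitoParks. The log2 fold change of Hba-a2 was 0.018 (95% interval -0.72 to 0.76, unadjusted p = 0.957 in the edgeR quasi-likelihood test), and it was -0.49 without MitoPark 3.

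Hbb-bt was at 6.34, 9.87 and 7.81 CPM across littermate controls 1 to 3 and at 8.77, 8.89 and 12.8 CPM across MitoParks 1 to 3, and Hbb-b2 had the same values throughout. The order of the mice was that of the summed globins. The log2 fold change of both was 0.34 (95% interval -0.18 to 0.86, unadjusted p = 0.176 in the edgeR quasi-likelihood test). For Hbb-bs, with a mouse listed at 0 in each group, it was -0.012 and the interval reached from -2.69 to 2.66.

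**Figure D2:**
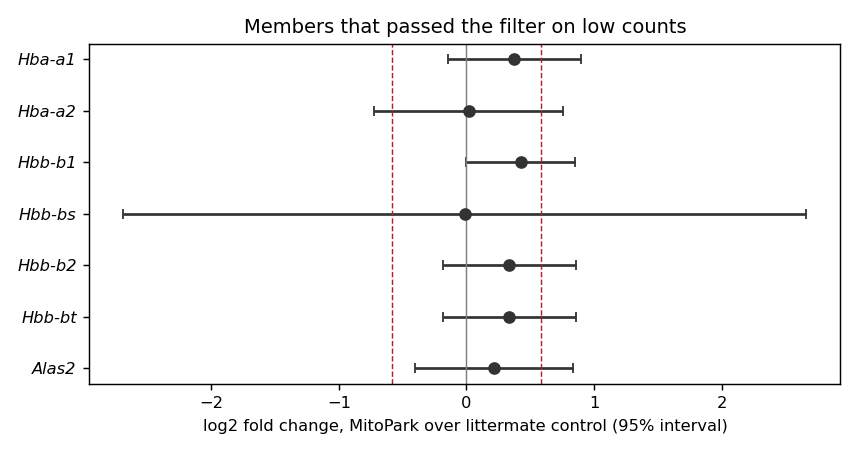
Points give the log2 fold change of MitoParks over littermate controls (horizontal axis) for the 7 genes tested, and bars give the 95% interval from the edgeR fit with 3 mice a group. Dashed lines mark a 1.5-fold change in either direction, and all 7 intervals include 0, with that of Hbb-b1 starting at -0.0047 and that of Hbb-bs reaching from -2.69 to 2.66.

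Alas2 followed the globins at a far lower level. It was at 3.34, 4.93 and 4.10 CPM across littermate controls 1 to 3 and at 3.53, 4.75 and 6.12 CPM across MitoParks 1 to 3, from between 29 and 54 counts per mouse. As for the globins, littermate control 1 was the lowest and MitoPark 3 the highest, and the groups overlapped (exact permutation test, p = 0.5). The group means were 4.12 ± 0.799 CPM and 4.80 ± 1.29 CPM (SD, n = 3 each), with a log2 fold change of 0.22 (95% interval -0.40 to 0.83, unadjusted p = 0.452 in the edgeR quasi-likelihood test). All Alas2 counts were whole numbers, with no sign of reads divided with another gene. Without MitoPark 3 the log2 fold change of Alas2 was 0.0067.

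For each Alas2 count there were 55.7, 69.3 and 71.2 globin counts across littermate controls 1 to 3 and 88.4, 69.6 and 67.1 across MitoParks 1 to 3. The ratio was thus between 67.1 and 71.2 in 4 of the 6 mice, lower in littermate control 1 and higher in MitoPark 1, which hold the fewest Alas2 counts, 30 and 29. Levels were also divided by coding length, although reads cover whole transcripts. Those of Hba-a1, Hbb-bs and Alas2 have 699, 628 and 2037 bases, against 429, 444 and 1764 coding bases. Levels of different genes thus compare only roughly, and the alpha and beta levels may differ by this divisor. Per kilobase of coding length, the alpha globins were at 340.6 ± 101.1, the beta globins at 286.5 ± 81.9 and Alas2 at 2.34 ± 0.453 CPM in littermate controls (SD, n = 3). In MitoParks the same 3 levels per kilobase were 430.5 ± 75.9, 374.8 ± 46.3 and 2.72 ± 0.733 CPM (SD, n = 3).

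The calprotectin genes were at the edge of detection in both groups. S100a8 had 6, 0 and 0 counts across littermate controls 1 to 3 and 0, 1 and 3 counts across MitoParks 1 to 3. S100a9 had 4, 0 and 1 counts across littermate controls 1 to 3 and 2, 2 and 4 counts across MitoParks 1 to 3. Above the floor of 3 counts were S100a8 and S100a9 in littermate control 1 and S100a9 in MitoPark 3. Littermate control 1, with the least globin RNA of all mice, had the most calprotectin RNA, 10 of the 11 counts of its group, and MitoPark 3, with the most globin RNA, held 7 of the 12 counts of the MitoParks. At this depth a difference between the groups was not detectable, and fitted without the filter on low counts the unadjusted p was 0.752 for S100a8 and 0.467 for S100a9 (edgeR quasi-likelihood test).

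**Figure D3:**
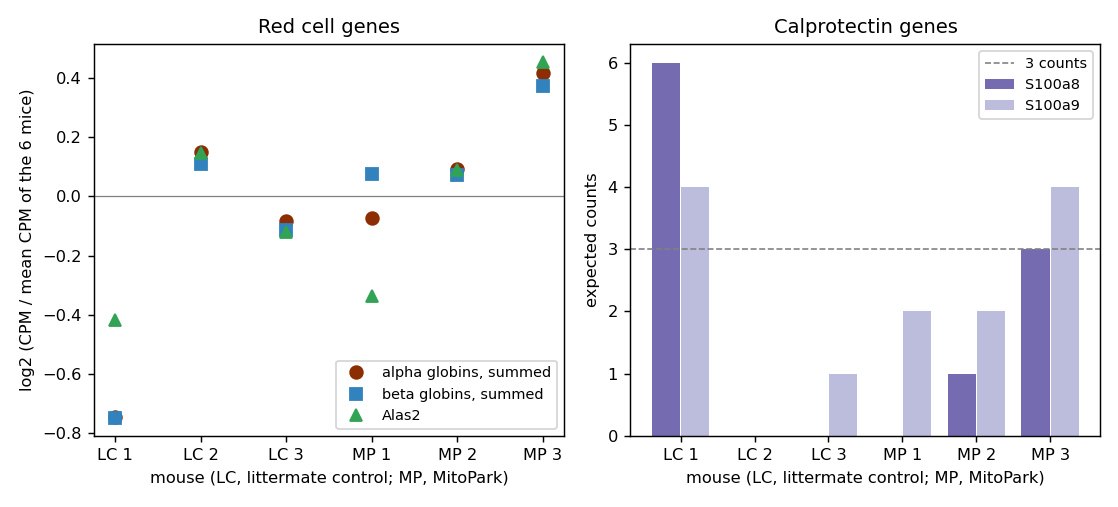
The left panel gives the level of the summed alpha globins, summed beta globins and Alas2 in each littermate control (LC) and MitoPark (MP) as the log2 ratio to the mean CPM of the 6 mice. The right panel gives the expected counts of S100a8 and S100a9 with a dashed line at 3 counts, where littermate control 1 has the most counts, 6 and 4, while its red cell genes in the left panel are the lowest.

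Likeness over the 6 mice was measured as the correlation of a gene's log2 level with that of the summed globins. Of the members, Alas2 reads none of its counts from the globins and had a Pearson correlation of 0.83 (Spearman 0.94), with 2.20% of all genes tested at a higher value. Without the mice farthest from the median, littermate control 1 and MitoPark 3, its Pearson correlation was 0.68. Outside the members the closest genes were Pnpla1 at 0.99, Lrrc1 at 0.99, Glrx, a glutaredoxin, at 0.98, Nop56, a nucleolar protein of ribosome assembly, at 0.98 and Prkag1, a subunit of AMP-activated kinase, at 0.98. Without the same mice the Pearson correlation was 0.99 for Pnpla1, 0.88 for Lrrc1, 0.87 for Glrx, 0.68 for Prkag1 and 0.58 for Nop56, so that those of Nop56 and Prkag1 rested largely on littermate control 1 and MitoPark 3. Pnpla1 was at 1.22, 2.28 and 1.86 CPM across littermate controls 1 to 3 and at 2.07, 2.22 and 2.94 CPM across MitoParks 1 to 3, the same order of mice as the globins. The closest genes to the summed calprotectin counts were Cntn5, Invs, Samd9l, Zfp609 and Fam126a, with Pearson correlations of 0.98 to 1.00, but a level read from 0 to 10 counts carries little order. These genes were picked as the highest of 14568 over 6 libraries that share depth and preparation, and none of the 10 was called between the groups.

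Other red cell genes gave little to set beside the globins. Of 18 listed genes of red cells, 16 were in the table, 12 did not pass the filter and 7 had 3 counts or fewer in every mouse. Slc4a1, the anion exchanger band 3 of the red cell membrane, had 0, 8 and 2 counts across littermate controls 1 to 3 and 2, 3 and 2 across MitoParks 1 to 3. Over the 12 genes that did not pass, the counts summed to 9, 26.9 and 23 across littermate controls 1 to 3 and to 15, 20 and 20 across MitoParks 1 to 3, lowest again in littermate control 1. Of the 4 tested, Tmcc2, Slc25a37 and Epor had means of 239.3, 26.7 and 1.89 CPM in littermate controls and 215.9, 28.8 and 2.06 CPM in MitoParks. None was called, 3 of the 4 were higher in MitoParks, and their median log2 fold change was 0.11 against -0.0047 for all genes tested.

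Among 6 further hemoglobin genes, those of embryonic chains and theta globins, 4 had no count in any mouse. Hbq1a had 3, 11 and 9 counts across littermate controls 1 to 3 and 6, 4 and 2 across MitoParks 1 to 3, and Hbb-y had at most 1. Of the globins of brain and muscle, Cygb, cytoglobin, was at 102.2 ± 12.4 CPM in littermate controls and 99.98 ± 1.90 CPM in MitoParks, and Ngb, neuroglobin, at 42.6 ± 20.9 and 47.2 ± 17.7 CPM (SD, n = 3 each). Neither passed the test, and Mb, myoglobin, was at most at 7 counts.

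The rest of heme synthesis did not differ past the cutoffs. All 9 listed genes were tested, 2 were higher and 7 lower in MitoParks, or 3 and 6 with total counts in place of TMM, 0 were called and their median log2 fold change was -0.032. Alas1, the enzyme of all tissues that does the same step as Alas2, was at 35.8 ± 3.92 CPM in littermate controls and 33.6 ± 4.11 CPM in MitoParks, and Fech, which inserts the iron, at 63.9 ± 9.54 and 59.5 ± 6.05 CPM (SD, n = 3 each). Cpox, coproporphyrinogen oxidase, was at 64.4 ± 21.8 and 68.4 ± 19.6 CPM. Of 8 genes for the clearance of heme and hemoglobin, 6 were tested, 3 were higher and 3 lower, 0 were called and the median was -0.031. Their highest levels were those of Lrp1, a receptor for hemopexin-bound heme, at 542.0 and 558.3 CPM, and of Hmox2, the constitutive heme oxygenase, at 71.5 and 75.3 CPM, in littermate controls and MitoParks. Hmox1, the inducible heme oxygenase, was at 5.23, 5.03 and 5.66 CPM across littermate controls 1 to 3 and at 4.02, 4.34 and 3.06 CPM across MitoParks 1 to 3. Every MitoPark lay below every littermate control, but Hmox1 was not called (log2 fold change -0.48, unadjusted p = 0.0674 in the edgeR quasi-likelihood test).

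Genes of other blood cells were mostly near 0. Of 20 neutrophil genes 18 were in the table, 3 passed the filter and 11 had 3 counts or fewer in every mouse, 3 of them with no count at all. The 18 genes summed to between 16.6 and 19.2 CPM in littermate controls and between 15.3 and 29.3 CPM in MitoParks. The granule gene Lcn2, named after its values were seen, had 13 counts in littermate control 1 and 0 in the other 5 mice. Over the 15 neutrophil genes that did not pass, littermate control 1 had counts in 10 and MitoPark 3 in 8, while the other 4 mice had counts in between 3 and 5. The mice with the most S100a8 and S100a9 counts were thus also those with counts in the most neutrophil genes, all at very low numbers.

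The 3 neutrophil genes that passed were all higher in MitoParks, where 48.6% of all genes tested were higher. Of these 3, 1 was called, against 0.577% of all genes tested, and their median log2 fold change was 0.30. Csf3r, the receptor of granulocyte colony-stimulating factor, was at 3.89, 4.18 and 4.59 CPM across littermate controls 1 to 3 and at 7.92, 4.44 and 8.72 CPM across MitoParks 1 to 3, where MitoPark 2 lay within the littermate controls. Its log2 fold change was 0.73 with a standard error of 0.28, an unadjusted p = 0.0269 in the edgeR quasi-likelihood test and, by Benjamini-Hochberg, an adjusted p = 0.999. Csf3r is also known from microglia and its counts were not whole numbers, as where reads are divided among genes. Cxcr2, a chemokine receptor, was at 9.14 ± 0.670 and 11.3 ± 3.97 CPM, and its counts were likewise not whole numbers. Mmp9, a gelatinase, was at 2.02 ± 0.666 and 2.43 ± 0.361 CPM (SD, n = 3 each). Neither was called.

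Of 9 platelet genes 4 were tested, 3 higher and 1 lower in MitoParks, 0 were called and the median log2 fold change was 0.18. Gp1bb, a glycoprotein of the platelet surface, was at 3.60 ± 0.486 CPM in littermate controls and 4.42 ± 2.11 CPM in MitoParks (SD, n = 3 each). None of the 10 lymphocyte genes passed the filter and 9 of them had 3 counts or fewer in every mouse, with a sum of at most 0.976 CPM in a littermate control and 1.36 CPM in a MitoPark. Of 7 monocyte genes only Ace passed, at 45.1 ± 4.50 and 40.5 ± 2.23 CPM without a call, and Ace is also a gene of vessels.

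Genes related to calprotectin were present without a call. Of its 4 listed receptors, 3 were tested, 1 higher and 2 lower in MitoParks with a median log2 fold change of -0.43, and Bsg, the most abundant, was at 414.6 ± 9.43 and 422.7 ± 31.9 CPM (SD, n = 3 each). Cd36 was at 5.32 ± 2.80 and 3.76 ± 0.254 CPM and Tlr4, which also binds lipopolysaccharide, at 1.72 ± 0.508 and 1.28 ± 0.343 CPM. Of 14 other S100 genes 7 were tested, 3 higher and 4 lower, with a median of -0.062. S100b, the S100 gene of astrocytes, was at 204.8 ± 77.9 CPM in littermate controls and 239.8 ± 60.5 CPM in MitoParks (SD, n = 3 each), S100a1 at 39.6 ± 8.76 and 46.2 ± 6.39 CPM, and S100a16 at 40.2 ± 10.1 and 38.5 ± 1.47 CPM. The 14 genes summed to between 224.9 and 417.9 CPM in littermate controls and between 297.4 and 432.6 CPM in MitoParks. S100b ranged from 131.6 CPM in littermate control 1 to 307.0 CPM in MitoPark 3, so that S100b and the summed S100 genes had the same lowest and highest mouse as the globins and Alas2. The part of astrocyte content in the globin levels was not tested.

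The summed endothelial, mural cell, dopaminergic and choroid plexus genes did not put the mice in the order of the globins. The 12 endothelial genes, of which 3 were higher and 9 lower in MitoParks (4 and 8 with total counts in place of TMM), summed to between 379.1 and 536.8 CPM in littermate controls and between 357.4 and 481.5 CPM in MitoParks, with a median log2 fold change of -0.060 and no call. Littermate control 3 had the most endothelial RNA, where its globins were the second lowest. The 8 mural cell genes summed to between 163.3 and 221.4 CPM in littermate controls and between 151.2 and 242.3 CPM in MitoParks, 7 being higher and 1 lower, with a median of 0.087 and no call. MitoPark 3 had the most RNA of mural cells, the smooth muscle and pericytes of vessels, as it had the most of the globins. The part of vessel content in the globin levels was not tested.

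The 14 dopaminergic genes summed to 572.3, 678.8 and 1775 CPM across littermate controls 1 to 3 and to 368.9, 706.4 and 681.1 CPM across MitoParks 1 to 3. MitoParks 2 and 3 thus lay above littermate controls 1 and 2. All 14 had a lower mean in MitoParks, with a median log2 fold change of -0.65, where 48.6% of all genes tested were higher. Called were 2, Slc6a3 and Foxa1, against 0.199% of all genes tested called lower. Slc6a3 encodes the dopamine transporter, at whose locus MitoParks carry Cre. An effect of that allele and a loss of cells cannot be told apart for it. Littermate control 3, with the most dopaminergic RNA, had 292.0 CPM of globins, and MitoPark 1, with the least, had 312.1 CPM. Without littermate control 3 the log2 fold of the summed globins was 0.41. The 8 choroid plexus genes summed to between 28.7 and 193.4 CPM in littermate controls and between 42.0 and 65.6 CPM in MitoParks, and of the 6 tested 2 were higher and 4 lower, with a median of -0.080 and no call. Littermate control 2 had the most choroid plexus RNA and 342.1 CPM of globins, the second highest. The part of dopamine neurons or of choroid plexus in the globin levels was not tested.

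**Figure D4:**
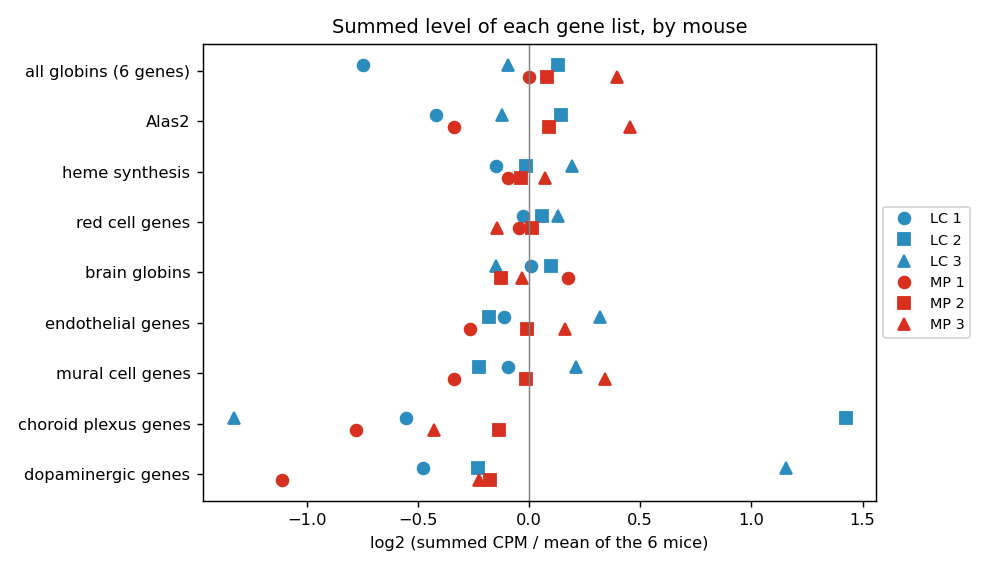
Each point is 1 mouse, and the horizontal axis gives the log2 ratio of its summed CPM over a gene list to the mean of the 6 mice. Littermate control 1 (LC 1) lies lowest and MitoPark 3 (MP 3) highest for the globins and Alas2, whereas littermate control 3 (LC 3) lies highest for the endothelial and dopaminergic genes and littermate control 2 (LC 2) for those of choroid plexus.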

How the data were processed

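The authors mapped reads to UCSC transcripts with Bowtie2 2.1.0, estimated expected counts per gene with RSEM 1.2.15 and deposited the expected counts, not normalized. The submitters' processing notes name hg38, a human build, for this mouse series, so no coordinates were taken for the counts. Of the values per mouse, 11.9% to 14.1% were not whole numbers, where reads were divided among genes. Columns headed Control and Treat were matched by number to the mice labelled Control and PD, and 0 columns belonged to no sample. RNA libraries were made stranded by the labels' protocol, and whether the counting used strand is not given in the sources used here.

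Expected counts were rounded and genes whose mean in either group exceeded 1 CPM were kept (14568). After TMM, the quasi-likelihood test of edgeR 4.0.16 (R 4.3.3) compared the 2 groups. A call required p below 0.05, unadjusted, and more than 1.5-fold change, the cutoffs of the study's methods. Adjustment for all genes tested was by Benjamini-Hochberg. In all, 84 genes were called, 161 had an unadjusted p below 0.05 and 0 an adjusted p below 0.05. Sums, shares and correlations (on log2(CPM + 0.1)) have no test. The procedure was tested on simulated data, where 99.5% of 200 genes changed by a log2 of 1.5 were called, as were 1.69% of unchanged genes. The changed genes were drawn only from genes above a set mean CPM, which Alas2 did not reach. Changes as small as those of the members were not simulated. Alternatives were DESeq2 1.42.0, other normalizations, filters, unrounded counts, the replicate block and each mouse left out. The mice may come from separate litters or not, so p-values measure the spread between these mice. Within groups no pair of mice agreed within sampling noise (chi-square over degrees of freedom at least 9.68).

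The members and gene lists were chosen with earlier results of these data known. Named genes were every member, the 5 genes most like each sum, and per list the called genes or up to 3 with the highest mean. Further genes of a list (Slc4a1, Ermap, Hbq1a, Hbb-y, Mb, Lcn2, Cxcr2, Mmp9, Hmox1) were named after their values were seen. Th, Pitx3 and Foxa2 of the dopaminergic list were also named outside this rule. Coding lengths came from GENCODE M21 and start regions from RefSeq (GRCm38.p6). Figures used Python 3.11.15 and matplotlib 3.10.9.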

Additional observations from a re-analysis of the deposited data

How the results depend on the processing

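With other normalizations, filters, unrounded counts, library sizes without the members and DESeq2's Wald test, none of the 7 genes tested was called and none changed its direction. The number of genes called over all genes was 84, 176 without the filter on low counts, and from 62 to 219 when single mice were left out.

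Leaving out each mouse gave a log2 fold of the summed globins between 0.15 and 0.56, lowest without littermate control 1 and highest without littermate control 2. For summed calprotectin it lay between -0.56 and 0.44, and no value is given without littermate control 1, since the remaining littermate controls then hold fewer than 3 counts. The log2 fold change of Hba-a2 turned to -0.12 without littermate control 2 and to -0.49 without MitoPark 3, and was highest, 0.32, without MitoPark 2. That of Hbb-bs turned to 0.92 without littermate control 2, 0.0098 without littermate control 3, 0.26 without MitoPark 1 and 0.57 without MitoPark 3, and was lowest, -1.77, without MitoPark 2. The cause was not tested, and the values of neither gene passed the test in any setting. Hba-a1 was called only without littermate control 2 (log2 fold change 0.62).

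The mice of both groups share replicate numbers, but deviations of same-numbered mice correlated at 0.31, -0.07 and 0.24, so the numbers were not taken as pairs. With the replicate block 126 genes were called over all genes, no member was called, and Hba-a2 turned to a log2 fold change of -0.064. Hba-a1 and Hbb-b1 then had unadjusted p-values of 0.0125 and 0.0139 (edgeR's quasi-likelihood test), at log2 fold changes of 0.42 and 0.44, under the 1.5-fold cutoff. The unadjusted p of Hbb-b1 was also below 0.05 with total counts (0.0456), with DESeq2 (0.0290), without the filter (0.0299) and without littermate control 2, littermate control 3 or MitoPark 2, in each case under 1.5-fold and with an adjusted p of 0.963 or more (edgeR or DESeq2). Depth limits S100a8 and S100a9, with 6 counts or fewer per mouse.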
